A study of Mus musculus with 22 samples.

Results

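The genes described here are 8 of the 24786 in the deposited tables: the inhibitory receptor genes Pdcd1, Lag3, Tigit, Havcr2 and Cd160, the ligand gene Cd274, the ectoenzyme gene Entpd1 and the transcription factor gene Tox. They were chosen by name as genes of T cell inhibition and exhaustion, and followed in 6 whole-liver libraries and 3 libraries of CD8+ T cells sorted from liver. All mice were C57BL/6 and 2 to 4 weeks old. The livers formed 3 groups of 2 libraries. The first, CD8-depleted TG Aire-/-, carried the dnTGFβRII transgene, lacked Aire and was labelled as depleted of CD8+ T cells by an agent that the labels do not name. The second, TG Aire-/-, had the same genotype and no treatment. The third, Aire+/+, had neither the transgene nor the deletion and no treatment. The transgene encodes a dominant-negative TGF-β type II receptor that acts in T cells, and Aire is the thymic regulator of self-antigen expression. TG Aire-/- and Aire+/+ livers differed in both at once, and these cannot be told apart. No depleted Aire+/+ liver was among the libraries used. The sorted cells gave 1 library of 500000 cells each from untreated TG Aire-/-, TG Aire+/- and Aire-/- mice.

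Inhibitory receptors sit on activated T cells and lower signalling from the antigen receptor when they meet their ligands on other cells. PD-1 (Pdcd1) binds PD-L1 (Cd274), LAG-3 binds MHC class II, TIGIT binds CD155 (Pvr), TIM-3 (Havcr2) binds galectin-9 and CEACAM1, and CD160 binds HVEM (Tnfrsf14). CD39 (Entpd1) breaks down extracellular ATP, the first step towards the suppressive nucleoside adenosine. TOX is the nuclear factor that sets up the exhausted state of CD8+ T cells under lasting antigen exposure. Several of the genes are also used outside T cells in liver: Cd274 and Entpd1 in endothelium and myeloid cells, and Havcr2 in myeloid cells.

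In the GRCm38 annotation (GENCODE release M21) Pdcd1 lies on chr1:94038305-94052553, Cd160 on chr3:96798763-96829351, Tox on chr4:6686353-6991557, Lag3 on chr6:124904361-124911705 and Tigit on chr16:43648867-43664146, all on the minus strand. Havcr2 on chr11:46454935-46481255, Cd274 on chr19:29367455-29388095 and Entpd1 on chr19:40612366-40741602 are on the plus strand. RefSeq promoter entries (GRCm38.p6) matched 6 of the 8 genes with 8 promoters; Lag3 and Tox had no entry. The 250 bases before the start site are printed on the gene's strand for the PD-1 receptor and its ligand, for the receptor genes Tigit and Havcr2, which moved with them in liver, and for the downstream promoter of Cd160, which was lower in sorted TG Aire-/- than in TG Aire+/- cells, the comparison in which Pdcd1 and Tigit were higher. Capitals mark matches to 5 motifs searched on both strands: GAAA, any 2 bases and GAAA (the IRF element), TTCNNNGAA (GAS), TGANTCA (AP-1), AAAGGTCA (NR4A) and TGTGGTT (RUNX).
Pdcd1, chr1:94052554-94052803, minus strand: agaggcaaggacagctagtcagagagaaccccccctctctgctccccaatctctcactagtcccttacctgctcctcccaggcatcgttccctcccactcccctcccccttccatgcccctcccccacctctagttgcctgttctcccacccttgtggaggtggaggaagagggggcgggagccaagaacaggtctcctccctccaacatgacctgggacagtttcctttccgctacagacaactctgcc
Cd274, chr19:29367188-29367437, plus strand: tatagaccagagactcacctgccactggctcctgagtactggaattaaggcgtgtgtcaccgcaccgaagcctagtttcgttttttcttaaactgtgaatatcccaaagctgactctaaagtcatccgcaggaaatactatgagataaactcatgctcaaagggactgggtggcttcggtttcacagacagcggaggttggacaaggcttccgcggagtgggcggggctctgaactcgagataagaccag
Tigit, chr16:43664185-43664434, minus strand: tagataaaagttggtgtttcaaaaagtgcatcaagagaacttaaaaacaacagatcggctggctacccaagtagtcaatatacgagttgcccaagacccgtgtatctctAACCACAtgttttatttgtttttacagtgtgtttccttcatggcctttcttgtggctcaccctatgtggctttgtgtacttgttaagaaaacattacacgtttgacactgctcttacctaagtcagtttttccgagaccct
Havcr2, chr11:46454681-46454930, plus strand: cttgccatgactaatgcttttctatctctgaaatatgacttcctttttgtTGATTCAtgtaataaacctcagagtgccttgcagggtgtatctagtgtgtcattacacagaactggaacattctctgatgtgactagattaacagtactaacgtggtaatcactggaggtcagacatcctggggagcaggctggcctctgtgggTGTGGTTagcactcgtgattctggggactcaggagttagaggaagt
Cd160, chr3:96814522-96814771, minus strand: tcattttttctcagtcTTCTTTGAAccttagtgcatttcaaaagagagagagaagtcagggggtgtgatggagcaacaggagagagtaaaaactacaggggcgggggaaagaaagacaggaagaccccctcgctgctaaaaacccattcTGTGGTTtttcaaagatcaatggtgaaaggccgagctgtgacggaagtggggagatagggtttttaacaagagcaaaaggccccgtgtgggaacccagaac
The RUNX letters stood in Tigit at position -141 from the start site, in Havcr2 at -46, in the downstream Cd160 promoter at -101 and in the other Cd160 promoter at -77. They occurred in 4.4% of 32851 mouse promoters of the same length. Havcr2 also held the AP-1 letters at -200, found in 6.75% of promoters, and the downstream Cd160 promoter the GAS letters at -234, found in 7.02%. The IRF letters (2.98% of promoters) and the NR4A letters (1.34%) were in none of the 8 promoters, and the Pdcd1, Cd274 and both Entpd1 windows held none of the 5 motifs. No matches overlapped. A match is a string of letters and was not tested for binding.

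Values were RPKM, read numbers divided by gene length and library size, which can be compared between genes. Depth inferred from the steps between low values was 20300000 to 22600000 reads in liver and 20800000 to 22500000 in sorted cells. Replicates of a group held 0 identical gene values, but the labels do not say that they were separate animals, so p-values measure the spread between these libraries, which may be technical. Aire could not check the liver labels: its RPKM was 0 to 0.301 in the 6 livers and 0 to 0.00059 in sorted cells. In thymus, Aire was 6.50 to 20.2 RPKM in the libraries labelled TG Aire-/-, 10.2 to 13.6 in TG Aire+/- and 16 to 29.5 in Aire-/-; the level did not follow the labelled copy number, and the deleted part of the gene is not given in the sources used here. Hepatocyte markers summed to 68585.2 and 38074.7 RPKM in CD8-depleted livers, 37907.6 and 24874.1 in TG Aire-/- livers and 60348.3 and 61224.3 in Aire+/+ livers, so the tissue label held in all 6.

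The label of the depleted livers was checked on the CD8 chains. Cd8a, the alpha chain of the CD8 coreceptor, had 0 and 0.187 RPKM in CD8-depleted livers, 8.76 and 3.75 in TG Aire-/- livers, and 0.161 and 0.220 in Aire+/+ livers. Depleted livers thus held as little Cd8a as Aire+/+ livers, and the beta chain gene Cd8b1 had 0 and 0.0342 RPKM in them against 6.27 and 3.0 in TG Aire-/- livers. Cd4, the coreceptor of helper T cells and also found on some myeloid cells, was 0.611 and 1.46 RPKM in CD8-depleted livers, 2.73 and 3.73 in TG Aire-/- livers, and 0.285 and 0.286 in Aire+/+ livers. Cd3e, a chain of the T cell receptor complex of all T cells, had 1.13 and 2.06 RPKM in CD8-depleted livers, 6.96 and 4.60 in TG Aire-/- livers, and 0.323 and 0.170 in Aire+/+ livers. By limma all 4 fell in CD8-depleted relative to TG Aire-/- livers, Cd8a by 2.64 (adjusted p = 0.00249), Cd8b1 by 2.41 (0.00221), Cd3e by 1.39 (0.0109) and Cd4 by 1.08 (0.0202) on the log2(RPKM + 1) scale. Cd8a and Cd8b1 reached 1 RPKM only in TG Aire-/- livers; in the fit without the filter on low values their adjusted p was 0.0167 and 0.0143.

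Relative to Aire+/+ livers, 6 of the 8 genes rose in TG Aire-/- livers: Pdcd1, Lag3, Tigit, Havcr2, Entpd1 and Cd274. Each of the 6 fell again in CD8-depleted TG Aire-/- livers relative to untreated ones. Tox was called in neither comparison, and Cd160 was too low to enter the test. Such calls were common in these livers, since limma called 31.8% of 12231 tested genes higher and 5.5% lower in TG Aire-/- livers, and 33.5% lower and 4.49% higher in CD8-depleted livers. Pdcd1, Lag3 and Havcr2 entered the test only through the TG Aire-/- libraries, where they reached 1 RPKM, so the count is better read without the filter. Over all 8 genes without it, the same 6 of 8 were higher in TG Aire-/- livers (18.6% of 18914 genes) and lower in CD8-depleted livers (19.7%). The 2 comparisons share the TG Aire-/- libraries, so a fall in one and a rise in the other are not separate evidence.

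**Figure D1:**
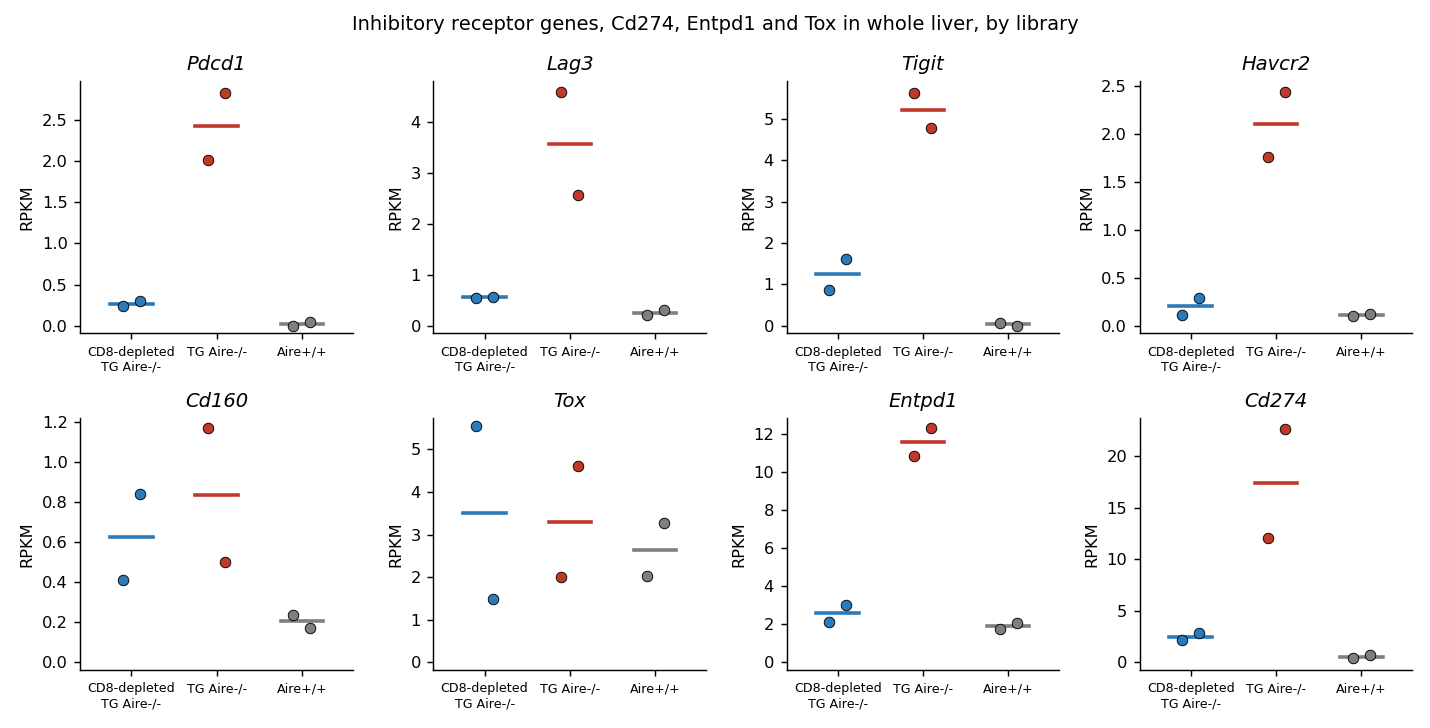
RPKM of the 8 genes in each of the 6 whole-liver libraries, a panel per gene with its own linear axis; points are libraries, bars are group means, and the groups run from CD8-depleted TG Aire-/- through TG Aire-/- to Aire+/+. Both TG Aire-/- points lie above all 4 other points in 6 panels. The share of all genes in that order was not computed, so the count is a description only. In Tox the groups overlap, and in Cd160 a CD8-depleted library at 0.838 RPKM exceeds a TG Aire-/- library at 0.502.

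Pdcd1 had 0.234 and 0.300 RPKM in CD8-depleted livers, 2.01 and 2.83 in TG Aire-/- livers, and 0 and 0.0509 in Aire+/+ livers. Its ligand gene Cd274 had 2.16 and 2.85 RPKM in CD8-depleted livers, 12.1 and 22.6 in TG Aire-/- livers, and 0.391 and 0.715 in Aire+/+ livers. For both genes the 3 groups did not overlap and stood in the same order, with CD8-depleted livers between the other groups. Pdcd1 averaged 2.42 ± 0.582 RPKM in TG Aire-/- livers and 0.0254 ± 0.036 in Aire+/+ livers (SD, n = 2 each), a log2 difference of 1.73 (SE 0.21, limma adjusted p = 0.00228). Cd274 averaged 17.3 ± 7.39 RPKM in TG Aire-/- livers and 0.553 ± 0.229 in Aire+/+ livers, a log2 difference of 3.51 (SE 0.336, adjusted p = 0.00184), the highest of the 7 tested genes. In CD8-depleted relative to TG Aire-/- livers Pdcd1 fell by 1.42 (SE 0.21, adjusted p = 0.00368) and Cd274 by 2.34 (SE 0.336, adjusted p = 0.0034). Since Pdcd1 passed the filter on low values only through the TG Aire-/- libraries, its test is better read without the filter, where the limma adjusted p was 0.0121 in TG Aire-/- over Aire+/+ livers and 0.0131 in CD8-depleted over TG Aire-/- livers. The RPKM of Pdcd1 in Aire+/+ livers lay below the 0.0723 to 0.0762 that 3 reads give there, so no ratio to that group is given, and its difference depends on the pseudocount of 1.

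LAG-3 is a CD4-like receptor, and Lag3 had 0.552 and 0.572 RPKM in CD8-depleted livers, 4.59 and 2.56 in TG Aire-/- livers, and 0.205 and 0.305 in Aire+/+ livers. Tigit, whose product competes with the activating receptor CD226, had 0.862 and 1.62 RPKM in CD8-depleted livers, 5.64 and 4.78 in TG Aire-/- livers, and 0.0633 and 0 in Aire+/+ livers. Havcr2 had 0.116 and 0.284 RPKM in CD8-depleted livers, 1.76 and 2.43 in TG Aire-/- livers, and 0.0965 and 0.126 in Aire+/+ livers. TG Aire-/- livers were highest in all 3 genes without overlap; CD8-depleted livers lay above Aire+/+ livers for Lag3 and Tigit and overlapped them for Havcr2. The log2 differences of TG Aire-/- over Aire+/+ livers were 1.83 for Lag3 (SE 0.263, limma adjusted p = 0.00334), 2.59 for Tigit (SE 0.251, 0.00184) and 1.47 for Havcr2 (SE 0.21, 0.00332). In CD8-depleted over TG Aire-/- livers they were -1.51 for Lag3 (0.00623), -1.49 for Tigit (0.00566) and -1.36 for Havcr2 (0.00417). Lag3 and Havcr2 also passed the filter only through the TG Aire-/- libraries. Without it their limma adjusted p was 0.017 and 0.0129 in TG Aire-/- over Aire+/+ livers, and 0.0223 and 0.0132 in CD8-depleted over TG Aire-/- livers. Both Aire+/+ values of Tigit lay under the 0.152 to 0.16 RPKM of 3 reads.

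CD160 is a receptor held in the membrane by a lipid anchor and is also found on NK cells. Cd160 had 0.409 and 0.838 RPKM in CD8-depleted livers, 1.17 and 0.502 in TG Aire-/- livers, and 0.238 and 0.170 in Aire+/+ livers. TG Aire-/- and CD8-depleted livers overlapped, and both groups lay above Aire+/+ livers. In the limma fit without the filter on low values, the log2 difference was 0.58 in TG Aire-/- over Aire+/+ livers (SE 0.223, adjusted p = 0.118) and -0.17 in CD8-depleted over TG Aire-/- livers (adjusted p = 0.608). Markers of NK cells, another source of Cd160, summed to 1.58 and 1.06 RPKM in CD8-depleted livers, 2.78 and 2.79 in TG Aire-/- livers, and 0.602 and 0.906 in Aire+/+ livers, with 0 to 3 of the 7 markers at 0 in a library; their part in the level was not tested.

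Entpd1 had 2.14 and 3.02 RPKM in CD8-depleted livers, 10.8 and 12.3 in TG Aire-/- livers, and 1.76 and 2.08 in Aire+/+ livers. The TG Aire-/- libraries stood apart from the other 4, whose values ran close together with CD8-depleted livers just above Aire+/+ livers. The log2 difference was 2.11 in TG Aire-/- over Aire+/+ livers (SE 0.258, limma adjusted p = 0.00229) and -1.82 in CD8-depleted over TG Aire-/- livers (SE 0.258, adjusted p = 0.00324). Tox had 5.54 and 1.49 RPKM in CD8-depleted livers, 2.00 and 4.61 in TG Aire-/- livers, and 2.02 and 3.27 in Aire+/+ livers. Its replicates differed more than its groups did. Group means of Tox were 3.52 ± 2.86, 3.31 ± 1.85 and 2.65 ± 0.884 RPKM in CD8-depleted, TG Aire-/- and Aire+/+ livers (SD, n = 2 each). The 95% interval of its log2 difference ran from -0.98 to 1.36 in TG Aire-/- over Aire+/+ livers (limma adjusted p = 0.781) and from -1.2 to 1.15 in CD8-depleted over TG Aire-/- livers (adjusted p = 0.974).

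CD8-depleted livers were then set against Aire+/+ livers. None of the 7 tested genes was called, where limma called 0.221% of all tested genes higher and 0.327% lower, 67 of 12231 in all; 1327 genes had an unadjusted p under 0.05. Tigit (log2 difference 1.10, 95% interval 0.51 to 1.68, limma adjusted p = 0.153) and Cd274 (1.17, interval 0.39 to 1.96, adjusted p = 0.249) came nearest, with intervals clear of 0. Intervals of the other tested receptors and of Entpd1 included 0: 0.31 (-0.18 to 0.79) for Pdcd1, 0.32 (-0.3 to 0.93) for Lag3, 0.11 (-0.38 to 0.6) for Havcr2 and 0.29 (-0.32 to 0.89) for Entpd1. Both CD8-depleted libraries lay above both Aire+/+ libraries for 6 of the 8 genes, Havcr2 and Tox being the exceptions. The share of all genes in that order was not computed, so the count is a description only. A pseudocount of 0.1 in place of 1 brought 1 call, Tigit, with a log2 difference of 3.33 (adjusted p = 0.0371).

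**Figure D2:**
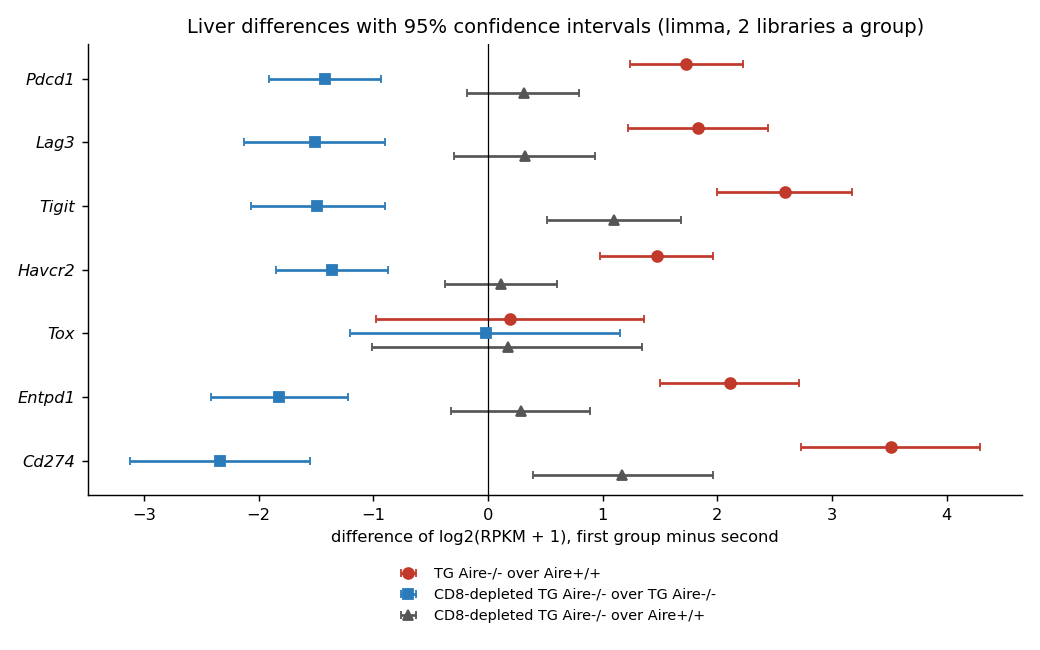
Differences of log2(RPKM + 1) between liver groups for the 7 tested genes, first group minus second, with 95% confidence intervals from the limma fit of 6 libraries; circles are TG Aire-/- over Aire+/+, squares CD8-depleted TG Aire-/- over TG Aire-/-, triangles CD8-depleted TG Aire-/- over Aire+/+. Circles and squares lie on opposite sides of 0 with intervals clear of it for every gene but Tox, and the triangles of Tigit (1.10) and Cd274 (1.17) are the only ones whose intervals exclude 0.

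Median log2 differences of the 7 tested genes were 1.83, -1.49 and 0.31 in TG Aire-/- over Aire+/+, CD8-depleted over TG Aire-/- and CD8-depleted over Aire+/+ livers, beside 0.53, -0.58 and -0.04 for all tested genes; they are a description, since 3 of the 7 passed the filter through TG Aire-/- livers alone. Quantile normalisation removed the shift of all genes (medians -0.06, 0.05 and 0.00) and turned the calls in TG Aire-/- over Aire+/+ livers into 1630 higher and 1497 lower, against 3892 and 673 without it. Under that scaling the same 6 genes stayed higher in TG Aire-/- livers, by 0.82 (Havcr2) to 2.97 (Cd274), with adjusted p of 0.00358 to 0.0351. In CD8-depleted over TG Aire-/- livers 4 stayed called: Cd274 at -1.78 (adjusted p = 0.0106), Entpd1 at -1.19 (0.0113), Pdcd1 at -0.69 (0.0344) and Havcr2 at -0.65 (0.035). Tigit at -0.75 (0.0597) and Lag3 at -0.79 (0.104) did not. Without the filter, leaving out either Aire+/+ library ended all 6 calls in both comparisons (adjusted p of 0.141 to 0.15 and of 0.0684 to 0.0877), and leaving out CD8-depleted replicate 1 ended all 6 in CD8-depleted over TG Aire-/- livers (0.0642 to 0.0982).

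Whole liver mixes many cell types, and fewer cells of a type cannot be told apart from less RNA per cell. T cell markers summed to 6.99 and 11.5 RPKM in CD8-depleted livers, 41.1 and 26.8 in TG Aire-/- livers, and 3.16 and 2.73 in Aire+/+ livers, and none of the 8 was at 0. All 8 were called higher in TG Aire-/- over Aire+/+ livers, and 7 of 8 lower in CD8-depleted over TG Aire-/- livers (8 and 6 of 8 without the filter). Markers of cells that carry Cd274, Entpd1 or Havcr2 outside the T lineage moved in the same directions. Macrophage and Kupffer cell markers summed to 224.6 and 741.1 RPKM in CD8-depleted livers, 1837.0 and 1751.3 in TG Aire-/- livers, and 276.7 and 237.7 in Aire+/+ livers, with 11 of 12 called higher in TG Aire-/- over Aire+/+ livers and 8 of 12 lower in CD8-depleted over TG Aire-/- livers (8 and 6 of 12 without the filter). Endothelial markers summed to 33.3 and 38.2 RPKM in CD8-depleted livers, 223.3 and 414.3 in TG Aire-/- livers, and 47.1 and 36.7 in Aire+/+ livers, with 9 of 10 called higher in TG Aire-/- over Aire+/+ livers and 9 of 10 lower in CD8-depleted over TG Aire-/- livers. Beside these counts, limma called 31.8% of all tested genes higher in TG Aire-/- over Aire+/+ livers and 33.5% lower in CD8-depleted over TG Aire-/- livers. Without the filter the shares were 18.6% and 19.7%. None of the macrophage or endothelial markers was at 0 in any liver. The part of these cells in the differences was not tested.

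Dividing each gene by the mean RPKM of Cd3d, Cd3e and Cd3g in the same library gave its level per unit of T cell transcript. That mean was 1.06 and 2.02 RPKM in CD8-depleted livers, 8.10 and 4.8 in TG Aire-/- livers, and 0.524 and 0.445 in Aire+/+ livers. Tigit per CD3 was close in the transgenic groups, at 0.814 and 0.803 per CD3 in CD8-depleted livers and 0.696 and 0.997 in TG Aire-/- livers, against 0.121 and 0 in Aire+/+ livers. Pdcd1 per CD3 was 0.221 and 0.149 in CD8-depleted livers, 0.248 and 0.590 in TG Aire-/- livers, and 0 and 0.114 in Aire+/+ livers. Both genes lay under 3 reads in Aire+/+ livers, so their ratios there are not compared with the other groups. Lag3 per CD3 did not separate the groups, with 0.522 and 0.283 in CD8-depleted livers, 0.566 and 0.534 in TG Aire-/- livers, and 0.392 and 0.685 in Aire+/+ livers. Havcr2 per CD3 was 0.110 and 0.141 in CD8-depleted livers, 0.217 and 0.506 in TG Aire-/- livers, and 0.184 and 0.283 in Aire+/+ livers, so only CD8-depleted livers stood apart, at the low end. Cd160 per CD3 was 0.386 and 0.415 in CD8-depleted livers, 0.144 and 0.105 in TG Aire-/- livers, and 0.453 and 0.382 in Aire+/+ livers, lowest in TG Aire-/- livers without overlap. Entpd1 per CD3 was 2.02 and 1.49 in CD8-depleted livers, 1.33 and 2.57 in TG Aire-/- livers, and 3.35 and 4.66 in Aire+/+ livers, highest in Aire+/+ livers without overlap, although its RPKM was highest in TG Aire-/- livers. Cd274 per CD3 was 2.04 and 1.41 in CD8-depleted livers, 1.5 and 4.70 in TG Aire-/- livers, and 0.746 and 1.61 in Aire+/+ livers, and the 3 groups overlapped. Tox per CD3 was 5.23 and 0.739 in CD8-depleted livers, 0.247 and 0.961 in TG Aire-/- livers, and 3.86 and 7.36 in Aire+/+ livers, where the T cell transcripts were scarce. Ratios rest on low CD3 values in the Aire+/+ livers and were not tested. Most of the CD3 mean there came from Cd3g (1.04 and 1.05 RPKM), with Cd3d at 0.21 and 0.112 and Cd3e at 0.323 and 0.17. Cd3g was 0.96 and 2.41 RPKM in CD8-depleted livers, so the ratios depend on the chain used.

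**Figure D3:**
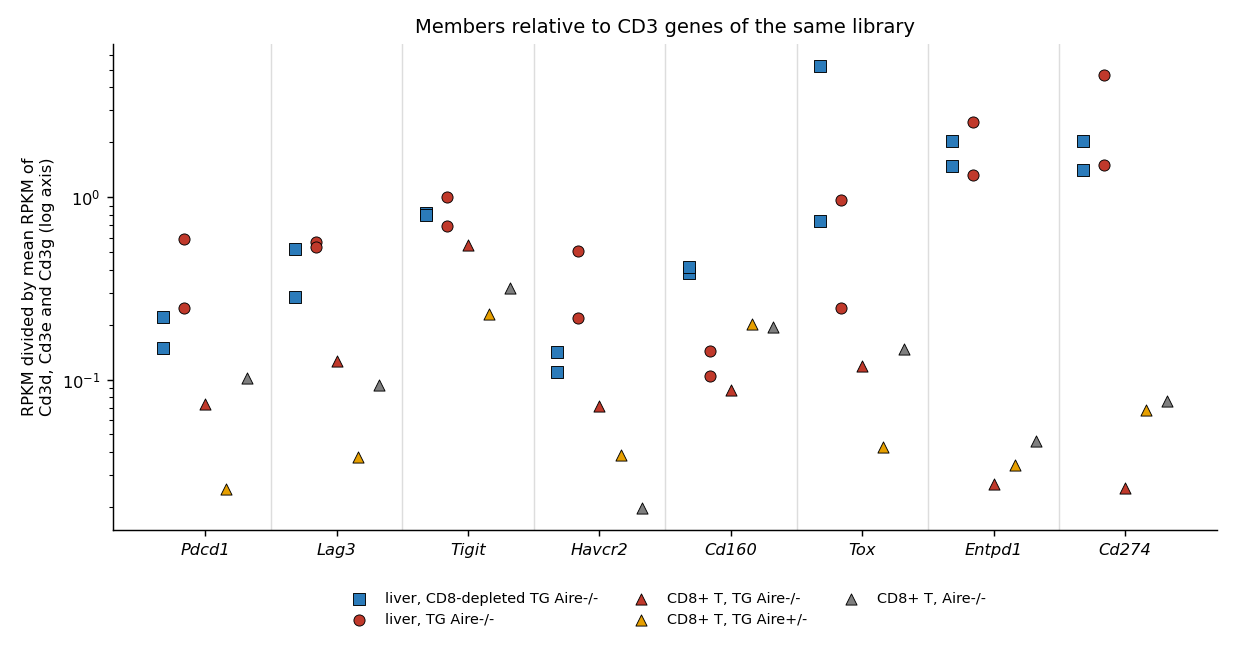
RPKM of each gene divided by the mean RPKM of Cd3d, Cd3e and Cd3g in the same library, on a log axis; squares are CD8-depleted TG Aire-/- livers, circles TG Aire-/- livers, and triangles the sorted CD8+ T libraries of the 3 genotypes. Aire+/+ livers are not drawn because 2 of their ratios are 0; liver and sorted cells were normalised in separate tables. Entpd1 and Cd274 lie above 1 in all 4 livers and below 0.1 in all 3 sorted libraries, while Tigit lies between 0.230 and 0.997 in all 7.

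Libraries of cells sorted as CD8+ T gave the level of the 8 genes nearer to that cell type, with 1 library a genotype and so no test. The CD3 mean was 206.2, 205.5 and 204.6 RPKM in TG Aire-/-, TG Aire+/- and Aire-/- cells. Its chains were less even, since Cd3d (184.8, 135.8 and 116.6 RPKM) and Cd3g (305.1, 342.7 and 382.8) ran in opposite orders. Cd8a was 172.0, 259.7 and 235.9 RPKM in the same order and Cd4 2.00, 2.67 and 1.97, so the libraries had the markers their label names. Tigit was the most abundant of the 8 in every library, with 112.7 RPKM in TG Aire-/- cells, 47.2 in TG Aire+/- cells and 64.7 in Aire-/- cells, above 96.2%, 89.7% and 94.5% of the genes that reached 1 RPKM there. In TG Aire-/- cells Lag3 (26.1 RPKM), Tox (24.3), Cd160 (18.2), Pdcd1 (15.2) and Havcr2 (14.7) followed, and Entpd1 (5.50) and Cd274 (5.24) were lowest. In TG Aire+/- cells Cd160 (41.4 RPKM) was second to Tigit, and Pdcd1 (5.18) was lowest.

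TG Aire-/- cells were first set against TG Aire+/- cells, which share the transgene and keep 1 functional Aire copy. Pdcd1 was 15.2 RPKM in TG Aire-/- cells and 5.18 in TG Aire+/- cells, a log2 difference of 1.39. Lag3 was 26.1 RPKM in TG Aire-/- cells and 7.77 in TG Aire+/- cells (1.63), and Tox was 24.3 and 8.79 RPKM (1.37). Together with Tigit (1.24), these 4 genes were higher by at least 1 on the log2(RPKM + 1) scale in TG Aire-/- cells, and Havcr2, with 14.7 RPKM in TG Aire-/- cells and 7.92 in TG Aire+/- cells, reached 0.82. Cd160 and Cd274 went the other way. Cd160 was 18.2 RPKM in TG Aire-/- cells and 41.4 in TG Aire+/- cells (-1.14), and Cd274 was 5.24 and 14.0 RPKM (-1.27). Entpd1 differed least, with 5.50 RPKM in TG Aire-/- cells and 7.02 in TG Aire+/- cells (-0.30). In all 6 of 8 genes differed by at least 1, as did 14.6% of 10825 genes (7.33% higher, 7.24% lower). Counting error at the inferred depth was at most 0.22 on the log2 scale for the 8 genes in any of the 3 comparisons, and does not cover differences between animals.

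Against Aire-/- cells, which lack Aire and the transgene, 3 of the 8 genes differed by at least 1, as did 20.7% of 11238 genes (10.3% higher, 10.3% lower). Havcr2 was 14.7 RPKM in TG Aire-/- cells and 4.03 in Aire-/- cells (log2 difference 1.64). Cd160 was 18.2 RPKM in TG Aire-/- cells and 39.7 in Aire-/- cells (-1.09), and Cd274 was 5.24 and 15.7 RPKM (-1.42). The genes highest over TG Aire+/- cells differed by less than 1 here, and Pdcd1 and Tox were no longer higher. Pdcd1 was 15.2 RPKM in TG Aire-/- cells and 20.9 in Aire-/- cells (-0.43), and Tox was 24.3 and 30.1 (-0.30). Lag3 and Tigit stayed higher in TG Aire-/- cells, Lag3 with 26.1 and 19.0 RPKM (0.44) and Tigit with 112.7 and 64.7 (0.79). Entpd1 was 5.50 RPKM in TG Aire-/- cells and 9.48 in Aire-/- cells (-0.69). The same TG Aire-/- library stands in both comparisons.

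TG Aire+/- cells had less Pdcd1, Tox and Lag3 than Aire-/- cells, with log2 differences of -1.82, -1.67 and -1.19; these 3 of 8 genes differed by at least 1, as did 6.87% of 11026 genes (2.2% higher, 4.66% lower). Tigit (-0.45), Entpd1 (-0.39), Cd274 (-0.15), Cd160 (0.06) and Havcr2 (0.83) did not. Pdcd1, Tox and Lag3 were therefore low in the TG Aire+/- library and within 0.44 on the log2 scale between the 2 Aire-/- genotypes, Cd160 and Cd274 were low in the TG Aire-/- library alone, and Havcr2 was lowest in Aire-/- cells and highest in TG Aire-/- cells. The median log2 difference of the 8 genes was 1.03 in TG Aire-/- over TG Aire+/- cells, -0.37 in TG Aire-/- over Aire-/- cells and -0.42 in TG Aire+/- over Aire-/- cells, beside 0.07, 0.07 and 0.04 for all genes.

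**Figure D4:**
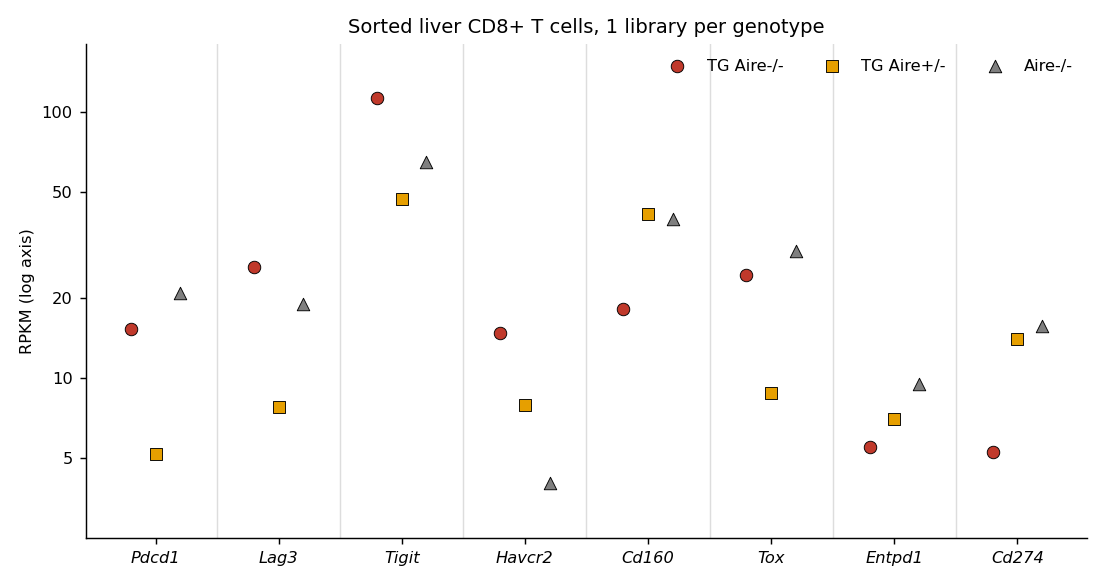
RPKM of the 8 genes on a log axis in the 3 libraries of CD8+ T cells sorted from liver, 1 library per genotype: circles TG Aire-/-, squares TG Aire+/-, triangles Aire-/-. Pdcd1, Lag3 and Tox are lowest in TG Aire+/- cells, Cd160 and Cd274 lowest in TG Aire-/- cells, and Tigit is the highest gene in each library (112.7, 47.2 and 64.7 RPKM).

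The 3 sorted libraries also differed in markers of other cells. Neutrophil markers summed to 654.3 RPKM in TG Aire-/- cells, 17.4 in TG Aire+/- cells and 1551.9 in Aire-/- cells, with none of the 9 at 0. S100a9, one of these markers, had 290.2, 7.45 and 522.5 RPKM in the same order. Macrophage and Kupffer cell markers summed to 61.1 RPKM in TG Aire-/- cells, 13.8 in TG Aire+/- cells and 394.8 in Aire-/- cells, with 2, 4 and 1 of 12 at 0. Lyz2 (35.0, 4.84 and 359.3 RPKM) made up most of the TG Aire-/- and Aire-/- sums. Csf1r (1.05, 0.187 and 7.24) had the same order, while Cd14 (7.08, 0.184 and 6.3) and C1qb (1.72, 0 and 0.93) were highest in TG Aire-/- cells. The library with the lowest neutrophil and macrophage sums, TG Aire+/-, was also the one with the least Pdcd1, Lag3, Tigit and Tox. Cd160 (18.2, 41.4 and 39.7 RPKM), Cd274 (5.24, 14.0 and 15.7) and Entpd1 (5.50, 7.02 and 9.48) were instead lowest in TG Aire-/- cells. Havcr2 (14.7, 7.92 and 4.03) was lowest in Aire-/- cells. NK cell markers, none of the 7 at 0, had another order than the neutrophil and macrophage sums. They summed to 56.5 RPKM in TG Aire-/- cells, 155.1 in TG Aire+/- cells and 134.8 in Aire-/- cells. That is also the order of Cd160. Klre1 (7.25, 79.8 and 64.5 RPKM) was the largest part of the TG Aire+/- and Aire-/- sums. Eomes (21.6, 39.1 and 23.8), also in the transcription factor list, Klra8 and Klra4 shared its order. Klrb1c (17.0, 9.22 and 12.8) was highest in TG Aire-/- cells, and Ncr1 (0.0637, 1.53 and 2.77) and Klrc2 (10.2, 19.2 and 26.7) in Aire-/- cells. Whether NK cells or the sorted CD8+ T cells themselves held the transcripts of this list was not tested. Dendritic cell markers summed to 15.1 RPKM in TG Aire-/- cells, 61.6 in TG Aire+/- cells and 30.7 in Aire-/- cells. That order was set by Itgax (CD11c), which some T cells also carry, with 9.41, 55.1 and 15.7 RPKM. The other markers of the list were lower and did not share 1 order. Flt3 (0.399, 0.0249 and 1.37 RPKM), Clec9a (0.0573, 0.0418 and 0.764) and Siglech (0, 0.0553 and 2.75) were highest in Aire-/- cells. So were Xcr1 (0.682, 0.252 and 1.02) and Ccr9 (2.86, 6.01 and 8.83). Zbtb46 (0.0288, 0.148 and 0.108) was highest in TG Aire+/- cells and Batf3 (1.63, 0 and 0.19) in TG Aire-/- cells. The part of these markers' cells in the levels of the 8 genes was not tested. Hepatocyte markers summed to 2.85 to 5.82 RPKM.

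**Figure D5:**
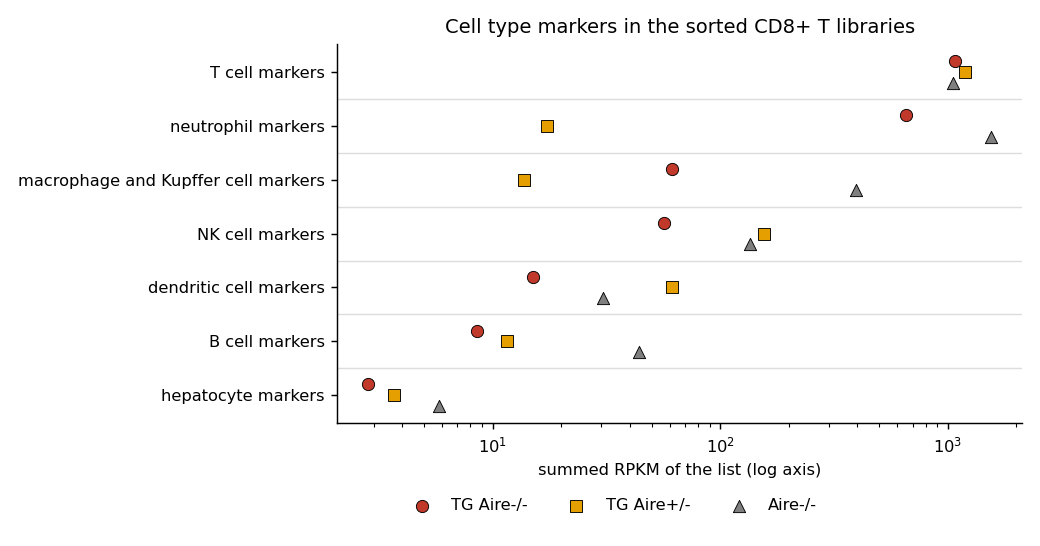
Summed RPKM of marker lists in the 3 sorted CD8+ T libraries, on a log axis, a row per list: circles TG Aire-/-, squares TG Aire+/-, triangles Aire-/-. T cell markers lie between 1052.3 and 1190.6 RPKM in all 3, while neutrophil markers run from 17.4 RPKM in TG Aire+/- cells to 1551.9 in Aire-/- cells.

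Ligands of the receptors were followed in liver as a list of 14 genes, 13 of them tested. Cd274 is in this list and is counted below among the ligands that rose and among those that fell. In TG Aire-/- over Aire+/+ livers 6 of the 13 rose and 1 fell, where 31.8% of all tested genes rose and 5.5% fell, and the median log2 difference was 1.24 beside 0.53 for all tested genes. Without the filter 6 of 14 were higher, beside 18.6% of all genes. The MHC class II genes, whose products LAG-3 binds, led the list. H2-Ab1 had 60.1 and 179.5 RPKM in CD8-depleted livers, 503.2 and 388.8 in TG Aire-/- livers, and 6.51 and 7.52 in Aire+/+ livers, a log2 difference of 5.79 in TG Aire-/- over Aire+/+ livers (limma adjusted p = 0.00153). H2-Ab1 fell by 2.08 in CD8-depleted relative to TG Aire-/- livers (adjusted p = 0.0162) and was 3.71 above Aire+/+ livers (adjusted p = 0.0282), the only ligand called there. H2-Aa (5.90, adjusted p = 0.00184) and H2-Eb1 (5.73, 0.00188) rose with it. Pvr, the ligand of TIGIT, rose by 2.5 (adjusted p = 0.0151) and Tnfrsf14, that of CD160, by 1.55 (0.00907). Ceacam1, a ligand of TIM-3, fell by 0.97 (0.0301). In CD8-depleted over TG Aire-/- livers 6 ligands fell and 1, Ceacam1, rose (0.83, adjusted p = 0.0477), beside 33.5% of all tested genes lower and 4.49% higher. Without the filter 4 of 14 were lower, beside 19.7% of all genes. In that fit the calls of H2-Ab1 in CD8-depleted over TG Aire-/- livers (adjusted p = 0.0507) and over Aire+/+ livers (0.193), of Pvr in TG Aire-/- over Aire+/+ livers (0.0558) and of Ceacam1 in CD8-depleted over TG Aire-/- livers (0.0516) were lost. Pvr, Tnfrsf14 and Ceacam1 were named after their values were seen. Pdcd1lg2, the other PD-1 ligand, stayed under 1 RPKM in every liver.

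The next lists hold genes that passed the filter on low values only because they were high in TG Aire-/- livers, so counts over the genes that passed are a description, and the counts without the filter stand beside them. Without it 18.6% of all genes were higher in TG Aire-/- over Aire+/+ livers and 19.7% lower in CD8-depleted over TG Aire-/- livers. Of 11 other inhibitory receptors 7 were tested, and all 7 rose in TG Aire-/- over Aire+/+ livers (median 1.68, beside 0.53 for all tested genes); without the filter 6 of 11 were higher. Lair1, a collagen receptor, rose by 2.75 (limma adjusted p = 0.00217), Lilrb4a by 4.4 (0.00283), Vsir, which encodes VISTA, by 2.45 (0.00325) and Ctla4, the CD28 antagonist, by 1.68 (0.0155). Ctla4 reached 1 RPKM in TG Aire-/- livers alone, and without the filter its call was lost (adjusted p = 0.0508). In CD8-depleted over TG Aire-/- livers 5 of the 7 fell, and 4 of 11 were lower without the filter. Each of the 7 tested costimulatory receptors reached 1 RPKM in the TG Aire-/- libraries alone, so over the 9 measured the count is given without the filter only: 8 of 9 were higher in TG Aire-/- over Aire+/+ livers and 7 of 9 lower in CD8-depleted over TG Aire-/- livers. Among them Tnfrsf9, which encodes 4-1BB, had 0.0204 and 0.240 RPKM in CD8-depleted livers, 6.48 and 22.5 in TG Aire-/- livers, and 0 and 0.222 in Aire+/+ livers (log2 difference 3.58 in TG Aire-/- over Aire+/+, limma adjusted p without the filter = 0.0205; -3.56 in CD8-depleted over TG Aire-/-, 0.0203). Phosphatases and adaptors that act below the receptors rose in 8 of 8 cases and fell in 8 of 8; without the filter 5 of 8 were higher and 4 of 8 lower. Among them were Inpp5d (SHIP-1) at 2.40 (0.00283) and Ptpn22 at 2.10 (0.00255) in TG Aire-/- over Aire+/+ livers. Of the interferon-γ list, whose pathway is known to induce Cd274, 10 of 10 tested rose (median 2.49) and 8 of 10 fell in CD8-depleted livers; without the filter 10 of 11 were higher and 6 of 11 lower. Gbp2, an interferon-induced GTPase, had 13 and 11.1 RPKM in CD8-depleted livers, 98.1 and 92.4 in TG Aire-/- livers, and 1.88 and 3.28 in Aire+/+ livers, a log2 difference of 4.78 in TG Aire-/- over Aire+/+ livers (adjusted p = 0.00142).

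Of 20 exhaustion and memory transcription factors 12 were tested in liver, Tox among them, and 8 of the 12 rose in TG Aire-/- over Aire+/+ livers with none falling, beside 31.8% of all tested genes higher. Their median log2 difference was 1.07, beside 0.53 for all tested genes. Without the filter 11 of 20 were higher, beside 18.6% of all genes. Id3, an inhibitor of E proteins, rose by 2.04 (limma adjusted p = 0.00346), Batf, an AP-1 factor, by 2.41 (0.00541), Maf by 1.87 (0.00859) and Tbx21, which encodes T-bet, by 1.01 (0.0077). Tbx21 reached 1 RPKM in TG Aire-/- livers alone; without the filter its adjusted p was 0.0139. In CD8-depleted over TG Aire-/- livers 7 of the 12 fell, beside 33.5% of all tested genes, and 7 of 20 were lower without the filter, beside 19.7%. Of 9 adenosine pathway genes 7 were tested. In TG Aire-/- over Aire+/+ livers 4 of the 7 rose, Entpd1 among them, and 1 fell, beside 31.8% and 5.5% of all tested genes. Without the filter 4 of 9 were higher, beside 18.6% of all genes. In CD8-depleted over TG Aire-/- livers 5 of the 7 fell and 1 rose, beside 33.5% and 4.49%. Without the filter 4 of 9 were lower and 1 higher, beside 19.7% lower and 413 of 18914 genes higher. Adora2a, the adenosine receptor of T cells, had 0.509 and 0.752 RPKM in CD8-depleted livers, 5.26 and 9.72 in TG Aire-/- livers, and 1.13 and 1.06 in Aire+/+ livers (log2 difference 1.97 in TG Aire-/- over Aire+/+, adjusted p = 0.00402; -2.33 in CD8-depleted over TG Aire-/-, 0.00252). The peptidase gene Dpp4 was the one that fell in TG Aire-/- over Aire+/+ livers, by 1.29 (0.0225), a call lost without the filter (0.0514). With the filter no gene of these lists was called in CD8-depleted over Aire+/+ livers except H2-Ab1 and Gbp2, and Gbp2 too lost its call without it (0.154).

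The same lists were followed in sorted cells, where 7.33% of all genes were higher by at least 1 and 7.24% lower in TG Aire-/- over TG Aire+/- cells, and 10.3% higher and 10.3% lower in TG Aire-/- over Aire-/- cells. Of the 20 transcription factors at 1 RPKM, 3 were higher by at least 1 and 8 lower in TG Aire-/- over TG Aire+/- cells, with a median log2 difference of -0.83 beside 0.07 for all genes. Tox2, the closest relative of Tox, was 5.00 RPKM in TG Aire-/- cells, 0.349 in TG Aire+/- cells and 1.79 in Aire-/- cells. The NR4A receptors, nuclear factors induced by antigen receptor signals, were lower in TG Aire-/- than in TG Aire+/- cells, where Tox was higher. Nr4a1 was 26.4 RPKM in TG Aire-/- cells, 277.0 in TG Aire+/- cells and 126.9 in Aire-/- cells. Nr4a2 was 16.1, 58.9 and 73.3 RPKM in the same order, and Nr4a3 was 0.657, 41.0 and 23.1. Over Aire-/- cells the log2 differences of Nr4a1 (-2.22), Nr4a2 (-2.12) and Nr4a3 (-3.86) had the same sign as that of Tox (-0.30). Among other inhibitory receptors 2 of 10 were higher and 2 lower in TG Aire-/- over TG Aire+/- cells. Ctla4 was 86.1 RPKM in TG Aire-/- cells, 41.4 in TG Aire+/- cells and 40.8 in Aire-/- cells, and Klrg1, a marker of short-lived effector cells, was 22.5, 101.6 and 3.18 RPKM. Costimulatory receptors gave 1 of 9 higher and 3 lower in TG Aire-/- over TG Aire+/- cells, among them Cd28, the main costimulatory receptor, with 46.1 RPKM in TG Aire-/- cells, 132.7 in TG Aire+/- cells and 55.5 in Aire-/- cells. Of 6 adenosine pathway genes 1 was lower, P2rx7, an ATP-gated channel with 1.91 RPKM in TG Aire-/- cells, 9.73 in TG Aire+/- cells and 7.46 in Aire-/- cells. Of 8 phosphatases and adaptors 1 was lower, Ptpn6 (SHP-1), with 22.1, 58.1 and 70.6 RPKM in the same order. Ligand genes gave 3 of 9 higher and 1 lower, the lower one being Cd274. The 3 were MHC class II genes, H2-Aa having 23.0 RPKM in TG Aire-/- cells, 7.85 in TG Aire+/- cells and 54.0 in Aire-/- cells, the order of the macrophage marker sum. Of 10 interferon-γ genes 7 were lower in TG Aire-/- over TG Aire+/- cells and 5 of 10 lower over Aire-/- cells, none higher in either, with median log2 differences of -1.43 and -1.19 beside 0.07 for all genes in both. Cxcl10 was 1.49 RPKM in TG Aire-/- cells, 23.5 in TG Aire+/- cells and 13.7 in Aire-/- cells, lowest in TG Aire-/- cells as was Cd274.

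The tested genes with the most similar liver profile, up to 2 for each gene, were found by the root mean square difference of log2(RPKM + 1), centred on its mean over the 6 livers, among 12230 genes. Tigit lay closest to 2 T cell genes, Cd3e (0.115 on the log2 scale) and Lat (0.116), the adaptor of the T cell receptor. Lag3 lay closest to Klrd1 (0.101), which encodes the NK and CD8+ T cell receptor CD94, and Spn (0.111), which encodes the leukocyte sialoglycoprotein CD43. Pdcd1 was nearest to Aim2 (0.066) and Unc13d (0.067), Havcr2 to Vamp3 (0.057) and Tgfb2 (0.069), and Entpd1 to Psrc1 (0.052) and Atp2a3 (0.076). Cd274 was nearest to Fgl2 (0.136) and H2-Q6 (0.176), the second a member of a family of near-identical genes whose reads may be shared. Cd160 was nearest to Fam92a (0.040) and Mppe1 (0.055). Tox, with a spread of its own of 0.507, was nearest to Rnu73b (0.104). All these distances rest on the same 6 libraries.

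Whole thymus, rich in developing T cells, gave the level of the 8 genes outside liver, as a description over 9 libraries of TG Aire-/-, TG Aire+/- and Aire-/- mice. Tox had the highest median of the 8, 23.4 RPKM, with a range of 10.7 to 35.8. Cd274 ran from 6.93 to 13.1 RPKM (median 9.21), Lag3 from 4.87 to 21.0 (7.05) and Pdcd1 from 2.04 to 6.98 (4.83). Entpd1 ran from 1.20 to 5.6 RPKM (1.43). TG Aire-/- replicate 1 stood apart: it had the highest Tigit, 23.9 RPKM where the other 8 libraries had 0.103 to 2.33, and the lowest Tox, 10.7 RPKM where the others had 18.0 to 35.8. It also had the highest Lag3 (21.0 RPKM, the others at most 9.60), Cd160 (5.13, at most 1.84) and Havcr2 (2.88, at most 1.80). The same library differed in marker sums. T cell markers summed to 596.4 RPKM in it and to 1195.1 to 1819.3 in the others, and CD8 and CD4 markers to 192.1 against 980.0 to 1580.2. Macrophage markers summed to 1519.4 RPKM, the others at most 336.8, and B cell markers to 258.8, the others at most 62.9. The part of these cells in the levels was not tested. No comparison between thymus groups was made.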

How the data were processed

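The authors deposited RPKM values in 3 tables of 24786 genes, 1 each for liver, sorted CD8+ T cells and thymus; the 4 livers whose labels carry no batch number, of 22 libraries in the series, were not analysed here. STAR 2.5.2b and mm10 are named per the submitters' processing notes. No source used here gives the counting tool, its annotation or its use of strand, and per the labels' protocols libraries followed Illumina or BGI protocols, without saying which.

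Liver groups were compared with limma 3.58.1 in R 4.3.3 (lmFit, eBayes with trend, two-sided) on log2(RPKM + 1), over genes with at least 1 RPKM in at least 2 of 6 livers, with all 3 groups in 1 fit and Benjamini-Hochberg adjustment over all genes tested; called means an adjusted p under 0.05. Differences on this scale understate changes of low genes. Sorted cells were compared as differences of log2(RPKM + 1) over genes with at least 1 RPKM in at least 1 of the 2 libraries, where 1 or more counts as differing. Python 3.11.15, pandas 2.3.3, numpy 2.4.6 and matplotlib 3.10.9 made the tables and figures. The fit was also run on simulated data with a smaller share of changed genes than limma called in TG Aire-/- over Aire+/+ livers. The outcome is not reported here, and no result rests on it.

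Depth was inferred from steps between low values, of which 39.5% to 49.7% were whole reads within 0.1 read, where chance gives 20%; this was too loose for a count test. At that depth 3 reads on 2000 bases give 0.0502 to 0.0739 RPKM, a limit that covers counting error only.

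The genes, lists and motifs were chosen with earlier results of these data known. Named beside the 8 genes were Cd3e, Cd8a, Cd8b1 and Cd4, up to 4 called genes a list with the smallest p in TG Aire-/- over Aire+/+ livers, list genes differing by 1 or more in sorted cells, up to 4 a list by size, and the 2 genes nearest each profile. Pvr, Tnfrsf14, Ceacam1, Pdcd1lg2, Dpp4, S100a9 and the other individual cell type markers were picked after their values were seen. Not every gene so chosen is reported here. Alternatives changed the pseudocount, filter, scaling, groups fitted and libraries.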

Additional observations from a re-analysis of the deposited data

How the results depend on the processing

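Counts of the 8 genes called in liver were recomputed under each alternative. Leaving out 1 library at a time, with the lone library of a group assumed to vary like the others, gave 3 to 6 called in TG Aire-/- over Aire+/+ and in CD8-depleted over TG Aire-/- livers, with 3 when either TG Aire-/- library was left out because Pdcd1, Lag3 and Havcr2 then failed the filter, and 0 each time in CD8-depleted over Aire+/+ livers. Leaving out 1 library without the filter, an alternative chosen after seeing the data, gave 0 to 6 in the first and second comparisons. Without either Aire+/+ library limma then called 0 of 18810 and 18827 genes in all in TG Aire-/- over Aire+/+ livers, with 4250 and 4321 at an unadjusted p under 0.05, so those losses were not particular to the 8 genes. Tigit also lost its call in CD8-depleted over TG Aire-/- livers without TG Aire-/- replicate 2 (adjusted p = 0.0546), and Lag3 without CD8-depleted replicate 2 (0.0607). Asking for 1 RPKM in at least 4 livers left 2 called of 3 tested in both comparisons, since fewer genes were tested. A pseudocount of 0.1 gave 1 call in CD8-depleted over Aire+/+ livers.

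Counts over all genes called ran over 1270 to 5102, 1294 to 4723 and 13 to 141 with 1 library left out, and over 0 to 5941, 0 to 5773 and 0 to 63 without the filter, against 4565, 4646 and 67. Quantile scaling gave 2622 in CD8-depleted over TG Aire-/- livers, and 17 were called in CD8-depleted over Aire+/+ livers both in a fit of those groups alone and without the filter.

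Tox changed sign and was not called in any of these, and the cause was not tested. With 1 library left out its log2 difference ran from -0.26 to 0.64, -0.72 to 0.67 and -0.53 to 0.86 in the 3 comparisons. In TG Aire-/- over Aire+/+ livers its log2 difference was -0.53 under quantile scaling, -0.06 without Aire+/+ replicate 1 and -0.26 without TG Aire-/- replicate 2. In CD8-depleted over TG Aire-/- livers it was 0.02 with values scaled to TPM, 0.68 under quantile scaling, 0.43 without TG Aire-/- replicate 2 and 0.67 without CD8-depleted replicate 2. In CD8-depleted over Aire+/+ livers it was -0.08 without Aire+/+ replicate 1 and -0.53 without CD8-depleted replicate 1.

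Replicate numbers were used as a block in 1 alternative, with 6, 6 and 0 genes called and no call changed. Deviations of same-numbered libraries correlated at -0.145, -0.093 and 0.292 over 12231 genes. With 2 libraries a liver group these correlations cannot decide whether the numbers pair libraries, and the labels do not say. The counts of 6, 3 and 3 genes differing in sorted cells held under all 6 alternatives. With 2 libraries a liver group, 1 a sorted group and low RPKM values for Pdcd1, Tigit and Cd160 in Aire+/+ livers, small differences were not detectable.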
